A study of Mus musculus with 8 samples.

Results

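The genes described here encode the nuclear subunits of respiratory complex III, of complex IV (cytochrome c oxidase) and of ATP synthase, together with *Cycs* and *Cyc1*, the genes of cytochrome c and cytochrome c1. They were chosen by name, as every symbol that starts with Uqcr, with Atp5 or with Cox followed by a digit from 4 to 8, plus *Cycs* and *Cyc1*. Of 18820 genes measured, 43 met this rule, of which 8 belong to complex III, 1 is cytochrome c, 17 belong to complex IV and 17 to ATP synthase. The brightest probe set over all arrays stood for each gene. *Cox7c* and *Uqcrc2* also meet the rule by name, but their 5 probe sets were shared with another gene and are given separately.

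Complex III passes electrons from ubiquinol to cytochrome c, a small haem protein that carries them to complex IV, where oxygen is reduced to water. Both complexes pump protons across the inner mitochondrial membrane, and ATP synthase lets the protons flow back through its ring of c subunits, which turns the central stalk and drives ATP synthesis in the F1 head. White adipocytes hold few mitochondria compared with brown adipocytes, and several subunits of complex IV exist as pairs of a general isoform and an isoform typical of muscle, brown fat, lung or testis.

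RNA came from epididymal white adipose tissue of 8 male C57BL/6 mice (4 WT, 4 *Sucnr1*-/-), each on 1 array. All 8 mice started a low-fat diet (LFD) for 16 weeks at 8 to 10 weeks of age and were killed at 24 to 26 weeks. The published methods give a higher upper limit for the starting age. The knockout allele lacks a large part of exon 2, which was exchanged for an IRES/lacZ/neo cassette in the germ line, so every cell of the *Sucnr1*-/- mice, not a chosen cell type, carries the cassette in place of it. Both genotypes came from intercrosses of heterozygous mice. SUCNR1 is the cell surface receptor for succinate, a substrate of the mitochondrial respiratory chain, and the comparison asks which transcripts of the fat pad differ when the receptor is absent. Because the fat pad is a mixed tissue, fewer cells of a type and less RNA per cell cannot be told apart in these values.

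Values are log2 expression on the RMA scale, and all differences below are *Sucnr1*-/- minus WT on that scale, with 1 log2 unit equal to a doubling. The array medians lay between 6.28 and 6.36, the correlations between arrays between 0.981 and 0.993, and no pair of arrays held identical values. *Sucnr1* itself averaged 9.20 ± 0.48 (SD, n = 4) in the WT group and 6.15 ± 0.71 (SD, n = 4) in the knockout group, without overlap, a difference of −3.06 that did not pass the adjustment over all genes (limma, adjusted p = 0.321). Adipocyte genes were near the top of the range in all 8 mice (mean of the 16 measured genes 12.07 to 12.36), which matches the labelled tissue.

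Most transcripts of the 3 complexes had a slightly higher mean in *Sucnr1*-/- than in WT fat, and no single transcript passed the adjustment. The mean was higher in *Sucnr1*-/- mice for 37 of the 43 genes, or 86%, whereas 53.2% of all genes had a higher mean. Without the 40% of genes of lowest mean the counts were 37 of 41 genes, or 90.2%, against 46% of all such genes. The median log2 difference of the 43 genes was 0.08, within a range from −0.18 to 0.38, and the median of all genes was 0.01. The median of the set in each mouse had an SD between mice of 0.075 in the group where it varied more. After Benjamini-Hochberg adjustment of the limma p-values across the whole table, 0 of the 43 genes and 0% of all genes passed the threshold of 0.05. At an unadjusted p under 0.05, 5 of the 43 genes (11.6%) were higher, against 3.46% of all genes, and 0 were lower, against 3.36% of all genes. Every *Sucnr1*-/- mouse was above every WT mouse for 6 of the 43 genes (14%), compared with 2.37% of all genes, and below every WT mouse for 0 genes, compared with 1.87%.

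**Figure D1:**
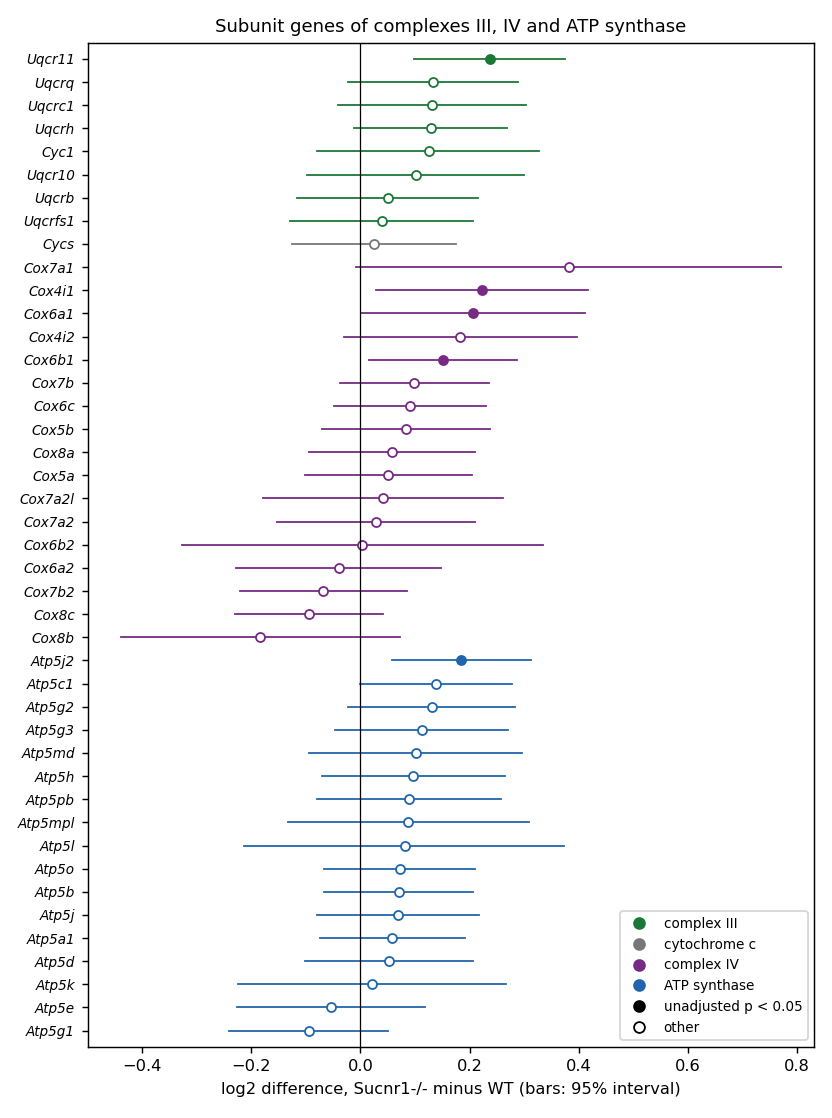
Log2 difference (*Sucnr1*-/- minus WT, n = 4 mice each) of the 43 subunit genes, grouped by complex and ordered by size, with the 95% interval of the limma fit as bars. Filled points mark the 5 genes with an unadjusted p under 0.05; points to the right of 0 are higher in *Sucnr1*-/- mice (37 genes), and most intervals include 0.

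WT mouse 1 lay low for many of these genes. It held the lowest value of all 8 mice for 28 of the 43 genes, including all 8 genes of complex III, 10 of complex IV and 10 of ATP synthase, whereas it was lowest for 24.2% of all genes. It was the highest mouse for 1 of the 43 genes and for 18.2% of all genes. Over all genes it was thus more often at either extreme than any other mouse. The median deviation of WT mouse 1 from the mean of all 8 arrays over the 43 genes was −0.15. The other WT mice were at 0.02, −0.01 and −0.03, and the *Sucnr1*-/- mice at 0.05, 0.07, 0.05 and 0.00. WT mouse 1 thus stood apart, and the remaining 7 mice lay between −0.03 and 0.07. Without it 33 of the 43 genes had a higher mean, and 3 genes were higher at an unadjusted p under 0.05. The median difference was then 0.04, and that of all genes was 0.001. The number of genes higher at an unadjusted p under 0.05 also moved with other mice. It was 8 without WT mouse 2, 3 without WT mouse 4, 2 without *Sucnr1*-/- mouse 2 and 3 without *Sucnr1*-/- mouse 3. The shares of all genes given above are those of the fit with all 8 mice, so they are no background for these counts.

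In the same mouse the markers of some cell types were shifted as well. Its mean deviation was only −0.04 for endothelial and −0.05 for mesothelial genes. For stromal progenitor genes it was 0.15, against 0.14 in WT mouse 2. The mean deviation of the 16 adipocyte genes was −0.20 in WT mouse 1 and between −0.02 and 0.08 in the other 7 mice, and 13 of these 16 genes had a higher mean in *Sucnr1*-/- mice (median difference 0.08; 1 gene with an unadjusted p under 0.05). Adipocyte marker levels ranged from 12.07 to 12.34 in WT and from 12.31 to 12.36 in *Sucnr1*-/- mice. The 22 macrophage genes deviated by 0.41 in WT mouse 1 and by 0.28 in WT mouse 3, and by −0.29 to −0.01 in the *Sucnr1*-/- mice. Of them 20 had a lower mean in *Sucnr1*-/- mice, with a median difference of −0.34, and their levels ranged from 10.05 to 10.48 in WT and from 9.79 to 10.07 in *Sucnr1*-/- mice. At an unadjusted p under 0.05 (limma) 7 of the 22 were lower and 1 was higher, against 3.36% and 3.46% of all genes. Every *Sucnr1*-/- mouse was below every WT mouse for 4 and above for 1, against 1.87% and 2.37% of all genes. The 7 measured B cell genes all had a lower mean in *Sucnr1*-/- mice (median difference −0.82), with a deviation of 1.55 in WT mouse 1 and levels from 6.27 to 8.22 in WT and 5.72 to 6.90 in *Sucnr1*-/- mice. Of the 7 T cell genes 6 had a lower mean (median −0.38), with levels from 6.31 to 7.20 and from 6.09 to 7.16. The T cell deviation was 0.53 in WT mouse 1, 0.60 in WT mouse 3 and 0.56 in *Sucnr1*-/- mouse 1. Of 12 immediate early genes, which are induced within minutes by stress or handling, 10 had a lower mean (median −0.26), and their deviation was 0.82 in WT mouse 1 and 0.53 in *Sucnr1*-/- mouse 1. The part of these differences in the values of the respiratory genes was not tested.

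**Figure D2:**
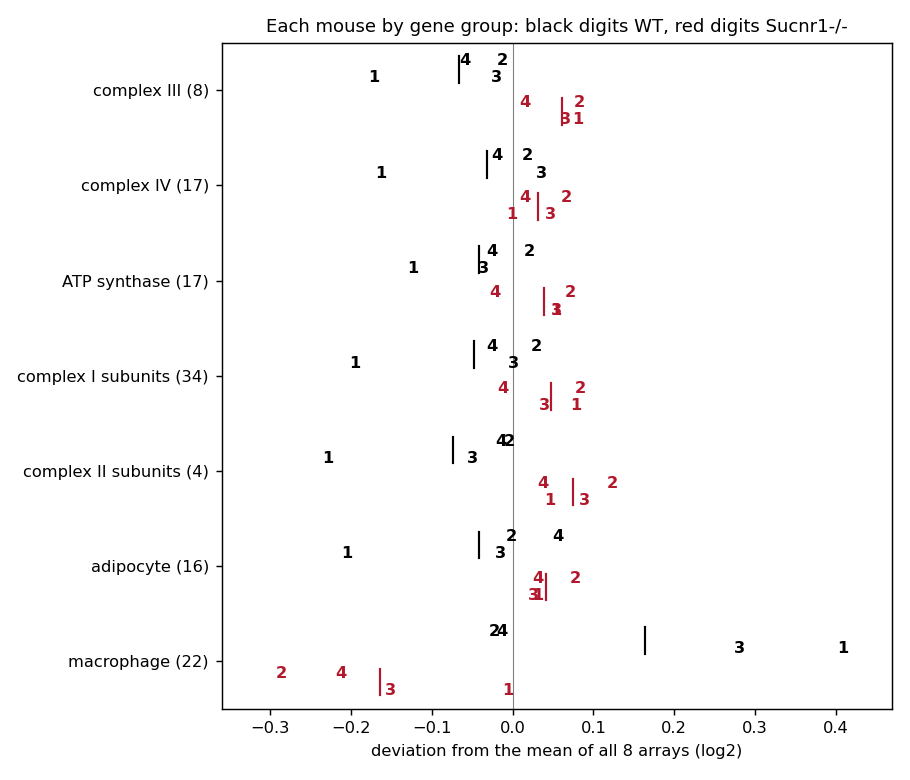
Deviation of each mouse (digit = mouse number; black WT, red *Sucnr1*-/-) from the mean of all 8 arrays on the log2 scale, as the median over the genes of complex III, complex IV and ATP synthase and as the mean over complex I and II subunits, adipocyte and macrophage genes, with the number of genes in brackets. Short lines are group means and the height of a digit within a row has no meaning; WT mouse 1 lies lowest for the respiratory and adipocyte genes and highest for the macrophage genes.

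Among the genes of complex III, all 8 had a higher mean in *Sucnr1*-/- mice, with differences from 0.04 to 0.24 and a median of 0.13. WT mouse 1 was the lowest mouse for each of them, and without it 7 of the 8 had a higher mean, with differences from −0.01 (*Uqcrfs1*) to 0.23 and a median of 0.07. *Uqcr11*, a small subunit, had the smallest p of all 43 genes. It was at 12.05, 12.09, 12.11 and 12.07 in the WT mice and at 12.30, 12.44, 12.28 and 12.26 in the *Sucnr1*-/- mice. The WT values were tight, and every *Sucnr1*-/- mouse lay above them. The difference was 0.24 (SE 0.06; 95% interval 0.10 to 0.38), a fold of 1.18 (limma, unadjusted p = 0.00383, adjusted p = 0.712; exact permutation test, two-sided, p = 0.0286, the smallest that 4 against 4 mice allow). Its dimmer probe set differed by 0.29.

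*Uqcrh*, the acidic hinge protein near the docking site of cytochrome c, was at 11.74, 11.90, 11.79 and 11.76 in WT and at 11.96, 11.97, 11.92 and 11.85 in *Sucnr1*-/- mice. WT mouse 2 alone reached into the range of the *Sucnr1*-/- group, and the difference was 0.13 (SE 0.06; exact permutation p = 0.0571). The much dimmer probe set of *Uqcrh*, at a mean level of 6.55, differed by 0.02 (SE 0.145). *Uqcrc1*, a core protein of the matrix side, was at 10.74 in WT mouse 1 but between 10.98 and 11.00 in the other WT mice, and at 11.04, 11.15, 11.00 and 11.03 in *Sucnr1*-/- mice. Its difference of 0.13 (SE 0.08) was 0.07 without WT mouse 1. *Uqcrq*, the ubiquinone-binding small subunit, was at 10.54, 10.79, 10.61 and 10.64 in WT and at 10.78, 10.71, 10.82 and 10.79 in *Sucnr1*-/- mice, which overlapped (difference 0.13, SE 0.07; exact permutation p = 0.0857).

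Cytochrome c1, the haem subunit that hands electrons to cytochrome c, showed a split within the *Sucnr1*-/- group. *Cyc1* was at 11.44, 11.64, 11.64 and 11.70 in the WT mice. In the *Sucnr1*-/- mice it was at 11.85, 11.85, 11.63 and 11.60, so that mice 1 and 2 were above and mice 3 and 4 within the WT range (difference 0.13, SE 0.09; exact permutation p = 0.286; 0.07 without WT mouse 1). The other members were small subunits *Uqcr10* (0.10, SE 0.09) and *Uqcrb* (0.05, SE 0.07) and *Uqcrfs1*, the Rieske iron-sulphur protein (0.04, SE 0.07). Without WT mouse 1 they were at 0.03, 0.00 and −0.01. *Cycs*, the carrier between complexes III and IV, was at 12.88, 12.88, 12.87 and 12.83 in WT and at 12.99, 12.93, 12.90 and 12.74 in *Sucnr1*-/- mice. Its *Sucnr1*-/- mice lay on both sides of the narrow WT range, and the difference of 0.03 (SE 0.07) had a 95% interval from −0.13 to 0.18.

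**Figure D3:**
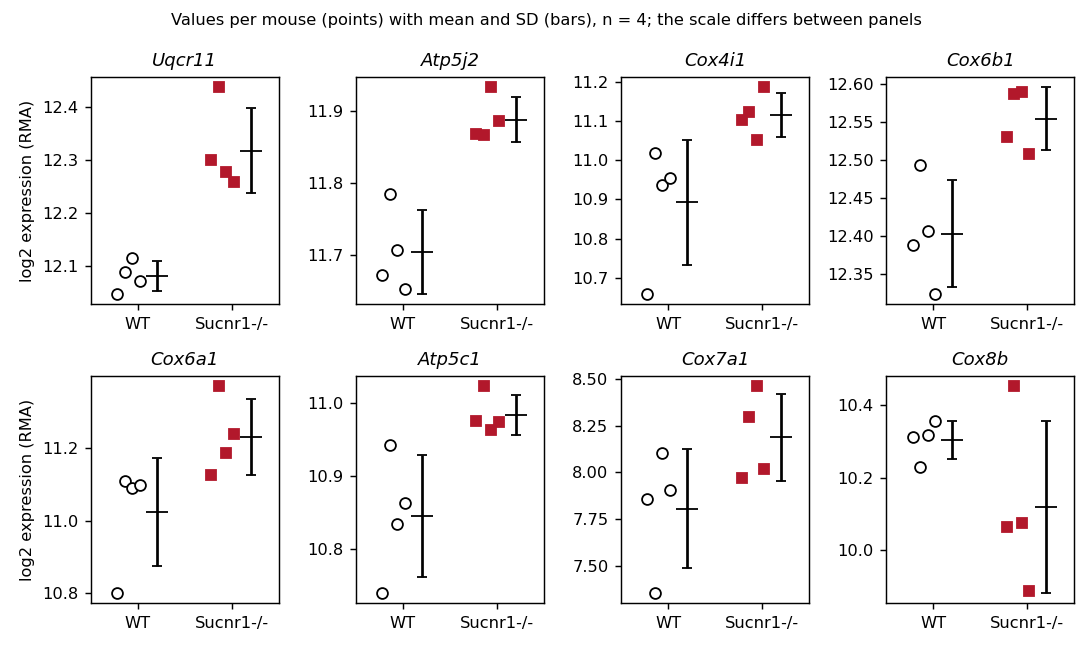
Log2 expression of 8 genes in each mouse (open circles WT, filled squares *Sucnr1*-/-; n = 4 each), with the mean and SD beside the points and a vertical scale of its own in each panel. In the panels of *Uqcr11*, *Atp5j2*, *Cox4i1*, *Cox6b1*, *Cox6a1* and *Atp5c1* every *Sucnr1*-/- mouse is above every WT mouse, in *Cox7a1* the groups overlap, and in *Cox8b* 3 of the 4 *Sucnr1*-/- mice are below all WT mice.

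In complex IV the subunits made in most tissues and the isoforms typical of particular tissues are described in turn. Of the 9 general subunits all 9 had a higher mean in *Sucnr1*-/- mice, with differences from 0.03 to 0.22 and a median of 0.09. Of the 7 tissue isoforms 3 had a higher and 4 a lower mean, with a median of −0.04. Without WT mouse 1, 8 of the 9 general subunits (median 0.06) and 2 of the 7 tissue isoforms (median −0.10) had a higher mean, and without *Sucnr1*-/- mouse 3 the counts were 8 and 3. The difference between the general subunits and the tissue isoforms was not tested. At an unadjusted p under 0.05 there were 3 general subunits, *Cox4i1*, *Cox6b1* and *Cox6a1*, and 0 tissue isoforms.

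*Cox4i1*, the general form of regulatory subunit IV, was at 10.66, 11.02, 10.94 and 10.95 in WT and at 11.10, 11.12, 11.05 and 11.19 in *Sucnr1*-/- mice. All *Sucnr1*-/- mice were above all WT mice, and WT mouse 1 was well below its group. The difference was 0.22 (SE 0.09; limma, unadjusted p = 0.0295, adjusted p = 0.712), or 0.14 without WT mouse 1. *Cox6b1*, a subunit of the intermembrane face that bridges the monomers of the dimer, was at 12.39, 12.49, 12.41 and 12.32 in WT and at 12.53, 12.59, 12.59 and 12.51 in *Sucnr1*-/- mice. The groups did not overlap, and this gene depended little on WT mouse 1 (0.15, SE 0.06; limma, unadjusted p = 0.0328; 0.15 without that mouse). *Cox6a1*, the liver-type form of subunit VIa, was at 10.80, 11.11, 11.09 and 11.10 in WT and at 11.13, 11.37, 11.19 and 11.24 in *Sucnr1*-/- mice. The groups were separated by a narrow gap, and the difference of 0.21 (SE 0.09; limma, unadjusted p = 0.0493, adjusted p = 0.719) was 0.13 without WT mouse 1. The exact permutation test gave p = 0.0286 for each of these 3 genes.

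*Cox7b*, another general subunit, was at 12.67, 12.75, 12.82 and 12.68 in WT and at 12.85, 12.85, 12.85 and 12.77 in *Sucnr1*-/- mice, with *Sucnr1*-/- mouse 4 inside the WT range (0.10, SE 0.06). *Cox6c* (0.09, SE 0.06), *Cox5b* (0.08, SE 0.07) and *Cox5a* (0.05, SE 0.07) had small differences, which were 0.06, 0.03 and 0.04 without WT mouse 1. *Cox8a* was at 12.73, 12.90, 12.91 and 12.97 in WT and at 12.98, 12.96, 12.92 and 12.89 in *Sucnr1*-/- mice (0.06, SE 0.07). *Cox7a2*, the liver-type form of subunit VIIa, was at 10.51, 10.80, 10.74 and 10.70 in WT and at 10.73, 10.69, 10.82 and 10.61 in *Sucnr1*-/- mice (0.03, SE 0.08). For both genes the groups overlapped, and without WT mouse 1 the differences were 0.01 for *Cox8a* and −0.03 for *Cox7a2*. *Cox7a2l*, classed here as a supercomplex factor, was at 9.16, 9.49, 9.61 and 9.40 in WT and at 9.44, 9.38, 9.53 and 9.46 in *Sucnr1*-/- mice (0.04, SE 0.10; −0.04 without WT mouse 1), all *Sucnr1*-/- mice being between the WT extremes.

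Of the tissue isoforms, *Cox7a1*, the form of subunit VIIa typical of heart, muscle and brown fat, had the largest difference of all 43 genes and also a wide spread. It was at 7.86, 7.36, 8.11 and 7.90 in WT and at 7.97, 8.30, 8.46 and 8.02 in *Sucnr1*-/- mice. WT mouse 2 was far below the rest, and WT mouse 3 lay among the *Sucnr1*-/- mice. The difference was 0.38 (SE 0.17; 95% interval −0.01 to 0.77) (limma, unadjusted p = 0.0538, adjusted p = 0.719; exact permutation p = 0.114), and 0.23 without WT mouse 2. *Cox4i2*, the form of subunit IV typical of lung, was at 6.38, 6.61, 6.48 and 6.65 in WT and at 6.60, 6.91, 6.61 and 6.73 in *Sucnr1*-/- mice (0.18, SE 0.09; exact permutation p = 0.143), with *Sucnr1*-/- mouse 2 highest.

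*Cox8b*, the form of subunit VIII typical of heart, muscle and brown fat, went the other way in its mean. It was at 10.31, 10.23, 10.32 and 10.36 in WT and at 10.06, 10.45, 10.08 and 9.89 in *Sucnr1*-/- mice. Of the *Sucnr1*-/- mice 3 were below all WT mice and mouse 2 was above them, and the difference of −0.18 (SE 0.11; 95% interval −0.44 to 0.07; exact permutation p = 0.143) moved with that mouse. Without *Sucnr1*-/- mouse 2 it was −0.30 (limma, unadjusted p = 0.00471, adjusted p = 0.926). The mice left in that fit do not overlap with WT, so the small unadjusted p follows from which mouse was removed. Without *Sucnr1*-/- mouse 4 the difference was −0.11. *Cox6a2*, the muscle form of subunit VIa, was at 6.62, 6.82, 6.91 and 6.86 in WT and at 6.67, 6.78, 6.89 and 6.70 in *Sucnr1*-/- mice (−0.04, SE 0.08).

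The isoforms typical of testis were dim throughout. *Cox8c* was at 5.64, 5.68, 5.76 and 5.68 in WT and at 5.58, 5.65, 5.51 and 5.65 in *Sucnr1*-/- mice (−0.09, SE 0.06), and *Cox7b2* at 3.46, 3.51, 3.54 and 3.64 in WT and at 3.35, 3.53, 3.48 and 3.52 in *Sucnr1*-/- mice (−0.07, SE 0.07). *Cox6b2* was at 6.07, 6.42, 6.50 and 6.17 in WT and at 6.06, 6.21, 6.23 and 6.66 in *Sucnr1*-/- mice, and the means differed by 0.00 (SE 0.15; 95% interval −0.33 to 0.34). Its highest value in each group came from WT mouse 3 and *Sucnr1*-/- mouse 4. These were also the mice with the most signal of the sperm gene *Prm1*, which was at 10.23 and 11.03 there and between 6.09 and 7.53 in the other 6 mice. *Ldhc*, the lactate dehydrogenase of sperm, was at 5.67 and 6.68 in those 2 mice and between 4.65 and 4.93 in the others. *Tnp1* and *Cyct*, of the same marker list, were likewise highest in these mice within each group. The epididymis genes of the list, *Lcn5*, *Lcn8*, *Lcn9*, *Rnase10* and *Adam7*, instead had their highest WT value in WT mouse 2. *Lcn8* was at 5.96 there and between 4.39 and 4.65 in the other mice. The part of testis or epididymis RNA in the *Cox6b2* values was not tested.

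Markers of the other tissues that use these isoforms overlapped between the groups. *Ucp1*, the uncoupling protein of brown fat, lay between 3.88 and 4.36 over the 8 mice, and the 13 measured brown and beige adipocyte genes averaged 6.38 to 6.48 in WT and 6.36 to 6.47 in *Sucnr1*-/- mice, with 5 higher and 8 lower means. *Cidea*, a lipid droplet protein of brown fat that white fat also makes, differed by −0.08 (SE 0.15). The 14 skeletal muscle genes averaged 5.58 to 5.68 in WT and 5.58 to 5.77 in *Sucnr1*-/- mice, with 7 higher and 7 lower means and a median difference of −0.01. The brightest of them was *Acta1*, skeletal muscle actin, at 9.74 to 11.11 over all mice.

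**Figure D4:**
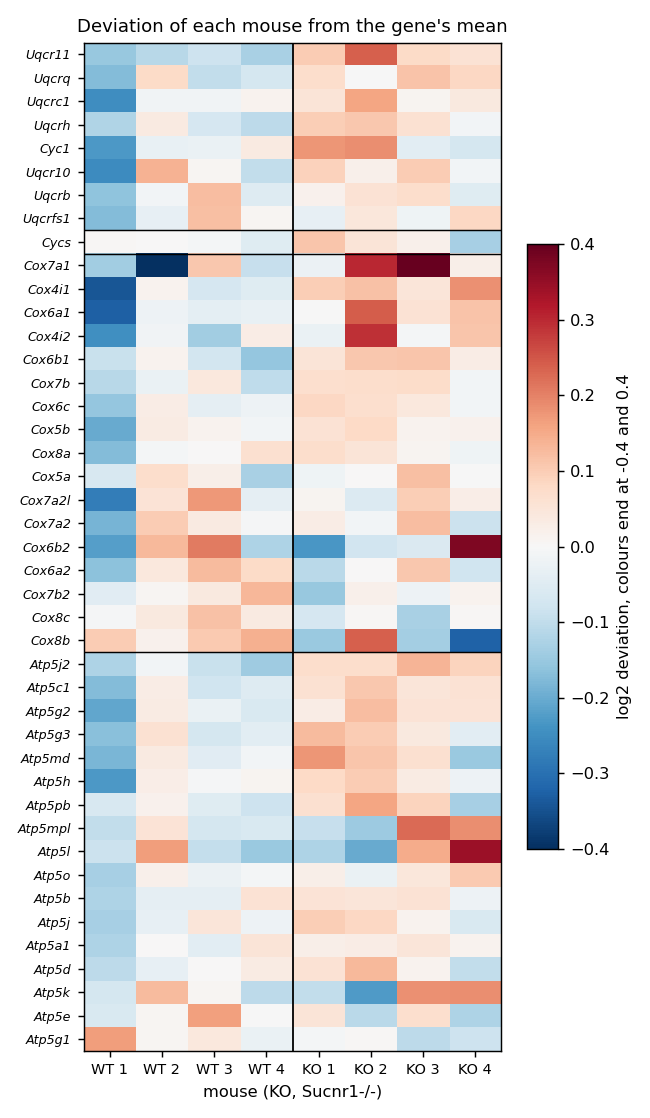
Deviation of each mouse (columns; KO, *Sucnr1*-/-) from the average of the 8 mice, gene by gene (43 rows, by complex and then by difference), on a log2 colour scale that ends at −0.4 and 0.4, which 2 values exceed. The column of WT mouse 1 is blue for all but 3 genes, and the deep cells of *Cox7a1* and *Cox6b2* mark the mice that stand apart for those genes.

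Among the 17 genes of ATP synthase, 15 had a higher mean in *Sucnr1*-/- mice and the median difference was 0.08. Without WT mouse 1 these were 15 genes and 0.04. *Atp5j2*, subunit f of the membrane part, was at 11.67, 11.78, 11.71 and 11.65 in WT and at 11.87, 11.87, 11.93 and 11.89 in *Sucnr1*-/- mice. The groups did not overlap, with a difference of 0.18 (SE 0.06; 95% interval 0.06 to 0.31), a fold of 1.14 (limma, unadjusted p = 0.0100, adjusted p = 0.712; exact permutation p = 0.0286). It was 0.17 without WT mouse 1. *Atp5c1*, the gamma subunit that turns inside the F1 head, was at 10.74, 10.94, 10.83 and 10.86 in WT and at 10.98, 11.02, 10.96 and 10.97 in *Sucnr1*-/- mice. These groups did not overlap either (0.14, SE 0.06; limma, unadjusted p = 0.0513, adjusted p = 0.719), and the difference was 0.10 without WT mouse 1.

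The other membrane subunits had higher means by less than their error or little more, with *Atp5md* at a difference of 0.10 (SE 0.09), *Atp5mpl* at 0.09 (SE 0.10), *Atp5l* at 0.08 (SE 0.13) and *Atp5k* at 0.02 (SE 0.11). The 4 genes of the peripheral stalk, which keeps the F1 head from turning, had differences from 0.07 to 0.10. They were *Atp5h* (0.10, SE 0.07), *Atp5pb* (0.09, SE 0.07), *Atp5o* (0.07, SE 0.06) and *Atp5j* (0.07, SE 0.07). Without WT mouse 1 *Atp5pb* was at 0.08 and the other 3 at 0.04. The catalytic subunit *Atp5b* (0.07, SE 0.06) and its partner *Atp5a1* (0.06, SE 0.06) in the F1 head, and the stalk subunit *Atp5d* (0.05, SE 0.07), differed by no more than this. *Atp5e*, the smallest stalk subunit, was at −0.05 (SE 0.08).

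The c ring is encoded by 3 genes that give the same mature protein and differ in their import sequences. *Atp5g2* was at 11.91, 12.15, 12.09 and 12.05 in WT and at 12.15, 12.24, 12.17 and 12.17 in *Sucnr1*-/- mice (0.13, SE 0.07). *Atp5g3* was at 11.08, 11.31, 11.17 and 11.20 in WT and at 11.37, 11.35, 11.29 and 11.20 in *Sucnr1*-/- mice (0.11, SE 0.07). *Atp5g1*, in contrast, was at 12.08, 11.92, 11.96 and 11.89 in WT and at 11.91, 11.92, 11.81 and 11.83 in *Sucnr1*-/- mice (−0.10, SE 0.06). WT mouse 1 was the lowest WT mouse for *Atp5g2* and *Atp5g3* and the highest for *Atp5g1*.

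Ratios of partner genes within each array, which do not change when all genes of an array move together, were compared for 10 pairs chosen after the values were seen. The log2 ratio of *Cox6a2* over *Cox6a1* was lower in *Sucnr1*-/- mice by a difference of −0.25 (SE 0.07; 95% interval −0.41 to −0.08), with no overlap between the groups, and was −0.23 without WT mouse 1. The ratio of *Atp5g1* over *Atp5g2* was also without overlap, at −0.23 (SE 0.09; 95% interval −0.45 to 0.00), but −0.14 without WT mouse 1. Both had an exact permutation p of 0.0286, which was 0.114 after Benjamini-Hochberg adjustment over the 10 pairs, so neither passed. In both pairs the gap was narrow. For *Cox6a2* over *Cox6a1* WT mouse 2 was at −0.06 and *Sucnr1*-/- mouse 3 at −0.07 relative to the WT mean. For *Atp5g1* over *Atp5g2* WT mouse 2 was at −0.137 and *Sucnr1*-/- mouse 1 at −0.150. A ratio alone shows unequal change and not which partner changed. *Cox6a1* itself differed by 0.21 (SE 0.09) and *Cox6a2*, a much dimmer gene, by −0.04 (SE 0.08). *Atp5g1* differed by −0.10 and *Atp5g2* by 0.13.

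*Atp5g1* over *Atp5g3* differed by −0.21 (exact permutation p = 0.0571), *Cox8c* over *Cox8a* by −0.15 (exact permutation p = 0.0571) and *Cox7b2* over *Cox7b* by −0.17 (exact permutation p = 0.0571). *Cox8c* and *Cox7b2* were the dimmest of the 43 genes, where array values are compressed, which limits the ratios that hold them. Their own differences were −0.09 and −0.07, and those of *Cox8a* and *Cox7b* were 0.06 and 0.10. The ratio *Cox8b* over *Cox8a* was at −0.24 (SE 0.12; 95% interval −0.54 to 0.05), with *Sucnr1*-/- mouse 2 apart from the other 3. *Cox7a1* over *Cox7a2* was the exception with a higher ratio in *Sucnr1*-/- mice, 0.35 (SE 0.21; 95% interval −0.17 to 0.88). Ratios close to 0 were those of *Cox4i2* over *Cox4i1* (−0.04, 95% interval −0.23 to 0.15) and of *Atp5g3* over *Atp5g2* (−0.02, 95% interval −0.13 to 0.09). For *Cox6b2* over *Cox6b1* the difference was −0.15 (95% interval −0.55 to 0.26), with *Sucnr1*-/- mouse 4 highest.

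**Figure D5:**
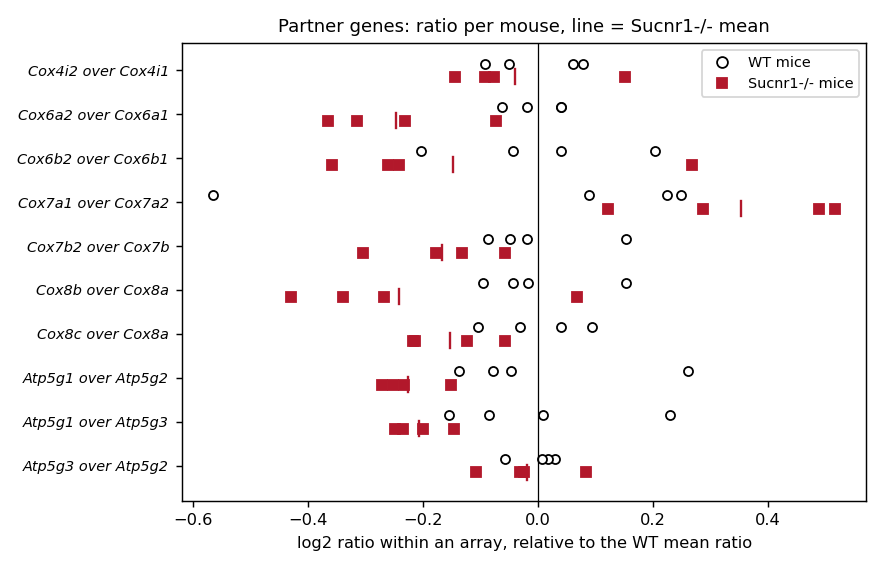
Log2 ratio of partner genes within each array, relative to the mean ratio of the WT mice, for 10 pairs (open circles WT, filled squares *Sucnr1*-/-, n = 4 each; red lines are *Sucnr1*-/- means). For *Cox6a2* over *Cox6a1* and *Atp5g1* over *Atp5g2* no *Sucnr1*-/- mouse reaches the lowest WT mouse; for *Cox7a1* over *Cox7a2* the *Sucnr1*-/- mean is at 0.35, and 1 WT mouse is at −0.57.

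Several probe sets were available for 17 of the 43 genes, 44 in all and up to 6 for *Atp5l*. For each of these 17 genes all probe sets had the same sign, 16 higher and *Atp5g1* lower. Their differences ranged over at most 0.14 within a gene, for *Cycs*, with a median range of 0.04. The 3 probe sets that *Cox7c*, a complex IV subunit, shares with *Gm10012* differed by 0.04 to 0.05. The 2 that *Uqcrc2*, the partner of *Uqcrc1* in the core of complex III, shares with *Pdzd9* differed by 0.07 and 0.16. Subunit genes of this kind have many processed copies in the genome, and signal from such copies cannot be told apart from that of the genes.

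Promoters were read from RefSeq windows on GRCm38.p6 that run from 250 bases before the start of a transcript to 50 bases after it. All 43 genes matched RefSeq by identifier, and 33 of them had such a window. The stretch from 150 bases before to 20 bases after the start is printed for 4 genes in which every *Sucnr1*-/- mouse was above every WT mouse and for *Cox7a1* and *Cox8b*, the genes of the highest and the lowest difference. Capitals mark matches, on either strand, to GCGCATGCG (NRF1), CCGGAAG (ETS factors), AAGGTCA (ERR), AAGATGGC (YY1), GGGCGG (SP1) and CCAAT (the CCAAT box). The sequences are given on the strand of the gene, 5′ to 3′. They come from chr10:80406802-80406971 (minus strand) for *Uqcr11*, chr5:145191522-145191691 (minus strand) for *Atp5j2*, chr7:30626095-30626264 (minus strand) for *Cox6b1*, chr5:115348939-115349108 (minus strand) for *Cox6a1*, chr7:30184021-30184190 (plus strand) for *Cox7a1* and chr7:140900427-140900596 (minus strand) for *Cox8b*.
*Uqcr11*: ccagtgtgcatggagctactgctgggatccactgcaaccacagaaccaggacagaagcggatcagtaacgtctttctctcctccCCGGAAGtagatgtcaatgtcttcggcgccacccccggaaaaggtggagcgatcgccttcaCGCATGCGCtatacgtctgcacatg
*Atp5j2*: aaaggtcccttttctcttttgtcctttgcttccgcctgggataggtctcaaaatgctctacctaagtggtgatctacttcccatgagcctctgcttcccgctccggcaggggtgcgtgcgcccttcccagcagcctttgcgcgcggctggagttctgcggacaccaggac
*Cox6b1*: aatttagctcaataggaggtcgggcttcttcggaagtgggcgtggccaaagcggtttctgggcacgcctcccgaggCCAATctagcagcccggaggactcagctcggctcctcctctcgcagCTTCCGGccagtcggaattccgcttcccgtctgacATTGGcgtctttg
*Cox6a1*: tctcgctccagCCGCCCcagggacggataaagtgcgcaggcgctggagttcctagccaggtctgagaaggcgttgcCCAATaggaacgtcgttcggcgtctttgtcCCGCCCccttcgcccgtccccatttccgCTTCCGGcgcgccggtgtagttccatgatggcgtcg
*Cox7a1*: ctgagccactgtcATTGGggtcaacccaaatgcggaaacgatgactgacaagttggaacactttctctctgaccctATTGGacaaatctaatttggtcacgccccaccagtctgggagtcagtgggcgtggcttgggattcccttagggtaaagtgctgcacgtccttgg
*Cox8b*: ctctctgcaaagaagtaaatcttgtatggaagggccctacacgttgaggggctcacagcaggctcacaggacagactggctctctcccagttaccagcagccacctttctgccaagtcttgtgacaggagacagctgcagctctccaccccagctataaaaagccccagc

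In the *Uqcr11* stretch an ETS match began 66 bases before the start, and the NRF1 match began 5 bases before it and ran across it. *Cox6b1* held a CCAAT box at −74, an ETS match at −28 and a further CCAAT box at 7 bases from the start. *Cox6a1* held SP1 matches at −139 and −44, a CCAAT box at −74 and an ETS match at −16. *Cox7a1* held CCAAT boxes at −137 and −74 and no other match, and no searched motif lay in the *Atp5j2* and *Cox8b* stretches. No marked matches overlapped. The stretches of *Uqcr11*, *Atp5j2*, *Cox6b1* and *Cox6a1* held 11, 9, 14 and 20 CpG dinucleotides, that of *Cox7a1* 5 and that of *Cox8b* 1, and the median over all windows was 4.

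Over the full windows of 300 bases, 7 of the 33 genes (21.2%) held the NRF1 motif, compared with 1.95% of all 27025 genes with a window. They were *Atp5g2*, *Atp5k*, *Atp5l*, *Cox6a1*, *Cycs*, *Uqcr11* and *Uqcrc1*. The ETS motif was in 11 (33.3%, against 9.93% of all genes), ERR in 4 (12.1%, against 5.38%), YY1 in 3 (9.09%, against 3.19%), the CCAAT box in 19 (57.6%, against 41.1%) and SP1 in 13 (39.4%, against 38.2%). The member stretches also had more CpG (median 12.5 against 4) and a GC content of 58.2% against 54.1% (medians). These are matches of letters, and binding was not measured here.

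Other parts of the respiratory chain were measured as lists. Of the 34 measured complex I subunits 29 had a higher mean in *Sucnr1*-/- mice, with a median difference of 0.10, and 3 had an unadjusted p under 0.05, namely *Ndufb7* (0.26, SE 0.06), *Ndufab1* (0.27, SE 0.08) and *Ndufb5* (0.16, SE 0.07). All 4 subunits of complex II, which oxidises succinate, had a higher mean (median 0.13), and *Sdhb*, its iron-sulphur subunit, differed by 0.22 (SE 0.06). In all these lists 0 genes passed the adjustment (limma). As with the 43 genes, WT mouse 1 lay lowest, at a mean deviation of −0.20 for complex I and −0.23 for complex II. The 13 subunits encoded by mitochondrial DNA had no probe set of their own in the annotation used here, so the catalytic core of complex IV was not analysed here.

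Genes that assemble the complexes were split between higher and lower means. Of 23 assembly factors of complex IV 11 had a higher and 12 a lower mean (median −0.01), of 6 for complex III 3 and 3 (median 0.00), and of 5 assembly and inhibitor genes of ATP synthase 2 and 3 (median −0.01). *Ndufa4*, which stood in the complex IV list and is now counted as a subunit of that complex, was left out of this count and differed by 0.27 (SE 0.08). The assembly factor *Cox20* differed by 0.27 (SE 0.08). *Lrpprc*, which stabilises mitochondrial messenger RNA, was at −0.22 (SE 0.09). *Atpif1*, the inhibitor of ATP hydrolysis by the synthase, differed by −0.09 (SE 0.09).

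Of 17 measured regulators of respiratory genes 8 had a higher and 9 a lower mean, with a median of −0.03 and 0 genes at an unadjusted p under 0.05. *Tfam*, which packages and transcribes mitochondrial DNA, differed by −0.20 (SE 0.09), and *Nrf1*, the factor of the motif searched above, by −0.14 (SE 0.09). *Ppargc1a*, a coactivator of mitochondrial biogenesis, was at 6.75, 7.70, 7.65 and 7.67 in WT and at 7.83, 8.36, 7.54 and 7.64 in *Sucnr1*-/- mice (0.40, SE 0.25; exact permutation p = 0.343), with WT mouse 1 lowest and *Sucnr1*-/- mouse 2 highest. Of 19 genes of the outer membrane, of protein import and of mitochondrial mass 8 had a higher and 11 a lower mean (median −0.01). *Timm23* and *Tomm40*, channels of the import machinery, differed by −0.15 (SE 0.06) each, and *Slc25a4*, an exchanger of ADP and ATP, by 0.15 (SE 0.07).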

How the data were processed

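RNA from epididymal white adipose tissue of 8 mice was hybridised to Affymetrix Mouse Gene 1.1 ST arrays. The deposited values are log2 expression, which the authors made with RMA according to the submitters' processing notes. In RMA the background is corrected, all arrays are normalised together and probes are summarised, so shifts in total signal are evened out and low values are compressed. The array medians still lay between 6.28 and 6.36, and centring them was among the alternatives. The RMA version, a genome build and hybridisation dates are not given in the sources used here.

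Of 35556 probe sets, 21218 had exactly 1 gene symbol, 1881 had several and 12457 were unnamed. For each gene the probe set of highest mean was used, which gave 18820 genes, with no filter on low values. *Sucnr1*-/- and WT mice were compared by lmFit and eBayes of limma 3.58.1 (R 4.3.3; 2.66 prior degrees of freedom) with Benjamini-Hochberg adjusted p-values over all genes. Exact two-sided permutation tests used all 70 ways to choose 4 of 8 mice, so p cannot fall below 0.0286. Replicates are separate mice, and their number limits the precision. The limma p-values set a difference against the spread between these mice, moderated by the spread over all genes. The exact p-values place it among all 70 splits of the mice. The fit was tested on simulated data.

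The genes, gene lists and marker lists were chosen with earlier results of these data known. Values per mouse are given for the 12 genes of smallest p, the partner and tissue isoforms, *Cycs*, *Cyc1* and the 3 lowest differences. Of each gene list counts, the median and up to 3 genes of smallest p are given. Alternatives were the methods' t-test, a prior that depends on intensity, array weights, a filter that removed the dimmest 40% of genes, quantile normalisation, centring of array medians, averaging of each gene's probe sets, the replicate number as a block and leaving out each mouse. Leaving out mouse 1 of both groups together was added after seeing the data. Python 3.11.15 with pandas 2.3.3 and matplotlib 3.10.9 was used for tables and figures.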

Additional observations from a re-analysis of the deposited data

Results flagged for a closer look

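In 6 of 88 groups of 4 mice (6.82%) a single mouse lay far from the other 3 by Dixon's criterion, where chance gives about 1 in 20. WT mouse 1 was the low value for 3 of them. *Cox6a1* was at 10.80 in that mouse and at 11.09 to 11.11 in the other WT mice, *Uqcrc1* at 10.74 against 10.98 to 11.00, and *Atp5h* at 11.23 against 11.46 to 11.49. *Sucnr1*-/- mouse 4 was low for *Cox7b*, at 12.77 against 12.85 in the other 3, and for *Atp5b*, at 12.91 against 12.98 to 12.99. *Sucnr1*-/- mouse 3 was high for *Cox5a*, at 9.13 against 8.99 to 9.01.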

How the results depend on the processing

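In all 17 alternatives 0 of the genes passed the adjustment over all genes (limma, and the methods' t-test), and the median difference of the set stayed above 0, between 0.03 and 0.11. The number of genes higher at an unadjusted p under 0.05, which was 5, became 8 with an intensity-dependent prior, 2 with median centring and 2 with mouse 1 of both groups left out, 6 with the methods' t-test, and lay between 2 and 8 when each mouse was left out in turn. The number of lower genes lay between 0 and 1 in those fits, the 1 being *Cox8b* without *Sucnr1*-/- mouse 2. No share of all genes is given for the alternatives, so these counts stand without a background. Median centring of the arrays left 33 genes with a higher mean and a median of 0.05, with the median of all genes at −0.02. *Uqcr11* (0.20 to 0.26) and *Atp5j2* (0.15 to 0.21) had an unadjusted p under 0.05 in all 17, *Cox4i1* in 12, *Cox6b1* in 9 and *Cox6a1* in 6. Of the 43 genes 35 kept their sign in every alternative that held them, and 8 turned in at least 1, namely *Atp5k*, *Atp5l*, *Cox6b2*, *Cox7a2*, *Cox7a2l*, *Cox8a*, *Cycs* and *Uqcrfs1*. The cause of these changes was not tested.

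The replicate numbers are shared between the groups, but deviations of same-numbered mice correlated by 0.454, 0.141, 0.106 and 0.015, and 4 of the 8 mice correlated best with the mouse of their own number, so the numbers were not taken to pair the mice. With the replicate number as a block 7 genes were higher at an unadjusted p under 0.05 and the median difference was 0.08. These were the 5 genes above with *Cox7a1* (limma, unadjusted p = 0.0424) and *Cox4i2* (limma, unadjusted p = 0.0382). The share of all genes in that fit is not given, so the count has no background either. With 4 mice per group, differences as small as those of most of these genes lie within the spread between mice. The dimmest genes, *Cox7b2* and *Cox8c*, lie where array values are compressed.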
